A study of Rattus norvegicus with 6 samples.

Results

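Ptf1a, Rbpjl, Nr5a2, Bhlha15, Gata4 and Gata6 encode transcription factors of pancreatic acinar cells, the cells that make and secrete digestive enzymes. They were taken by symbol from the deposited expression table, which holds 18625 named genes, and all 6 were present. All 6 passed the filter on low values, and none stood below 20.2 scaled CPM, a read count made comparable between libraries, or 591 reads in any library. Postnatal preparations held less Ptf1a, Nr5a2 and Gata4 RNA than fetal ones, by mean factors of 8.98, 2.87 and 2.19, and no difference was called for Rbpjl, Bhlha15 or Gata6. Over the same libraries, 21 of 24 digestive enzyme and granule protein genes were higher after birth, as were 30.0% of all tested genes.

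RNA sequencing profiled rat islets, pancreatic clusters of endocrine cells, soon after their isolation. Postnatal islets gave 3 libraries whose titles all read 2 weeks, while their age labels read postnatal week 2, 3 and 4 for replicates 1, 2 and 3. Fetal islets of embryonic day 19 (E19) gave the other 3 libraries. The labels give no strain, sex, treatment or pooling of animals, and nothing in them ties a replicate to its own animal. The p-values below therefore reflect the spread among these libraries alone, part of which may be technical.

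Postnatal libraries held 28.2 to 29.5 M recovered reads and fetal libraries 26.1 to 37.8 M. Scaled CPM are reads divided by a library size that was adjusted between libraries. Among 12926 genes in the limma fit, 3874 (30.0%) rose and 4278 (33.1%) fell after birth, 63.1% in all. With plain CPM the split was 1780 higher and 5088 lower, and after rescaling without the 20 highest genes 5065 and 3213. The median log2 fold change of all tested genes was -0.03 as deposited, -0.36 with plain CPM and 0.20 after that rescaling. The digestive enzyme genes took 49.5%, 27.9% and 24.6% of the reads in postnatal replicates 1, 2 and 3, against 9.19%, 12.4% and 11.8% in fetal replicates 1, 2 and 3. Wilson 95% intervals of these shares reached at most 0.0181 percentage points to either side and cover counting error only. Both sets of preparations labelled as islets thus held many acinar transcripts, and postnatal replicate 1 stood apart from the other postnatal libraries. Fetal replicate 2 stood apart in liver transcripts, with a summed level of 7041 scaled CPM over 9 hepatic markers against 209 and 273 in fetal replicates 1 and 3.

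Acinar cells are specified and kept by a small network of factors, known mainly from mice. PTF1A, a basic helix-loop-helix protein, binds DNA as the PTF1 complex with an E protein and either RBPJ or its acinar relative RBPJL, and the RBPJL form drives the genes of digestive enzymes. NR5A2 is a nuclear receptor that acts with PTF1 at those genes, BHLHA15 (also called MIST1) sets up the secretory machinery, and GATA4 and GATA6 are zinc finger factors needed for the growth of the pancreas and for acinar differentiation.

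Promoters of 5 of the 6 genes were matched by symbol in RefSeq (GRCr8), as windows of 300 bases with 250 before the start site. The windows of a pair that fell, Ptf1a and Nr5a2, and of a pair with no called difference, Rbpjl and Bhlha15, are printed to show the DNA letters that PTF1-type complexes read. Capitals mark CANNTG, the E-box core of helix-loop-helix factors, and TGGGAA on either strand, the core letters of RBPJ-type factors.
Ptf1a, chr17:86959371-86959670, plus strand: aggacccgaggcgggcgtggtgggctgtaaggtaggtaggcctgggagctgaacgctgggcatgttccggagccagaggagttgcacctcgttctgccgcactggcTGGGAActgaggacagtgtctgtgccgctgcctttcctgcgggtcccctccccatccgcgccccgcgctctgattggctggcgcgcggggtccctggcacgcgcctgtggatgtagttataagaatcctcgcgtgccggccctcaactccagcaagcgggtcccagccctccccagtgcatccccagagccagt
Nr5a2, chr13:50984889-50985188, minus strand: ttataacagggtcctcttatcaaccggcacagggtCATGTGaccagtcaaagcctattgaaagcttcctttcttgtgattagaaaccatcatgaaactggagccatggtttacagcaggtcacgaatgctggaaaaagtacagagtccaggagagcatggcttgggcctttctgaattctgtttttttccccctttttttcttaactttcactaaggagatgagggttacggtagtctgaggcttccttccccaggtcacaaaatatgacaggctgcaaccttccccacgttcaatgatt
Rbpjl, chr3:173553248-173553547, plus strand: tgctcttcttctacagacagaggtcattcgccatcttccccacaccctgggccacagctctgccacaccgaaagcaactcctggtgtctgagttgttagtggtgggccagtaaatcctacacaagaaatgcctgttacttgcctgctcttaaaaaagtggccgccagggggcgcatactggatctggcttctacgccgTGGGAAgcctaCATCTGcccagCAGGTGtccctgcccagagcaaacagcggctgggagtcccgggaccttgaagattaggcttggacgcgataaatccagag
Bhlha15, chr12:15538250-15538549, minus strand: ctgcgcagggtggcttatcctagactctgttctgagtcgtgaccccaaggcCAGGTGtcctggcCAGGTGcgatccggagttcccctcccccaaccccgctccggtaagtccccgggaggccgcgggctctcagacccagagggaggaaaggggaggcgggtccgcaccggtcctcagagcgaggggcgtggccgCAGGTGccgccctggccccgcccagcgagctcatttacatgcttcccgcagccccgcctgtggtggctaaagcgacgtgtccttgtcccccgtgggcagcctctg
The Rbpjl window held both kinds of match, with the E-boxes CATCTG and, farther on, CAGGTG placed 5 and 16 bases after the RBPJ-type letters. The Bhlha15 window held CAGGTG at 3 places and no TGGGAA, the Nr5a2 window held a single CATGTG, and the Ptf1a window held a single TGGGAA and no E-box. The Gata6 window held none of these letters. The letters AGATAA, read by factors of the GATA family, and AAGGTCA, read by NR5A factors, were searched on both strands. These exact spellings were in none of the 5 windows and in 11.6% and 4.61% of all windows. Other spellings that these factors may read were not searched, so an absence of their sites was not shown. Of 33469 rat windows of this length, 72.1% held CANNTG, 25.7% held TGGGAA and 19.1% held both, and the 2 motifs share no overlapping letters in the printed windows. A match describes the letters only. The genome build behind the deposited counts is not given in the sources used here.

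Ptf1a, the subunit that names the PTF1 complex, showed the largest difference of the 6. Its level was 43.0, 22.6 and 20.2 scaled CPM in postnatal replicates 1, 2 and 3, against 243, 187 and 341 scaled CPM in fetal replicates 1, 2 and 3. Every postnatal library lay far below every fetal one. The means were 28.6 ± 12.6 in postnatal and 257 ± 78.0 scaled CPM in fetal libraries (SD, n = 3 each), a log2 fold change of -3.16 ± 0.31 (SE; limma with Benjamini-Hochberg adjustment over 12926 genes, adjusted p = 1.35e-04). Of all genes tested, 27 (0.209%) had a log2 fold change as low or lower. The call held under all 21 alternative settings, with log2 fold changes between -3.69 and -2.92. In bulk samples, fewer cells of a type and less RNA per cell cannot be told apart.

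Rbpjl, the acinar RBPJ-type subunit, stood at 473, 231 and 148 scaled CPM in postnatal replicates 1, 2 and 3, against 259, 259 and 314 scaled CPM in fetal replicates 1, 2 and 3. Postnatal replicate 1 was above, and postnatal replicates 2 and 3 below, all fetal libraries, so the groups overlapped. The log2 fold change was -0.13 ± 0.37, with a 95% interval of -0.98 to 0.73 (limma adjusted p = 0.782), while the linear means, 284 ± 168 in postnatal and 277 ± 31.7 scaled CPM in fetal libraries, put it on the other side. Without postnatal replicate 1, where 35.6% of tested genes were called lower, Rbpjl was called lower after birth (-0.57 ± 0.20, limma adjusted p = 0.0336). Rbpj, the widely expressed subunit that also serves Notch signalling, stood at 104 ± 9.38 in postnatal and 102 ± 3.28 scaled CPM in fetal libraries (SD, n = 3 each). Its log2 fold change was 0.02, with a 95% interval of -0.21 to 0.25 (limma adjusted p = 0.857), and its direction turned under 4 of 21 settings.

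The balance of these subunits was compared as ratios within a library, which a common scaling of that library leaves almost untouched. The log2 ratio of Rbpjl to Rbpj was 2.06, 1.12 and 0.65 in postnatal replicates 1, 2 and 3 and 1.29, 1.38 and 1.60 in fetal replicates 1, 2 and 3. The postnatal values spread to both sides of the fetal ones, and a two-sided exact permutation gave p = 0.8 (0.8 after adjustment over 4 ratios). The log2 ratio of Ptf1a to Rbpjl was -3.43, -3.30 and -2.82 in the postnatal and -0.10, -0.47 and 0.12 in the fetal libraries. This ratio, chosen after the values were seen, differed between the groups by -3.03 log2 units, with Ptf1a low against Rbpjl in all 3 postnatal libraries. Its exact permutation p was 0.1 (0.133 adjusted), the smallest raw p that 3 libraries against 3 allow. The ratio of Ptf1a to Nr5a2, also chosen after the values were seen, was -1.32 ± 0.20 in postnatal and 0.22 ± 0.22 in fetal libraries (SD, n = 3 each; exact permutation p = 0.1, 0.133 adjusted).

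**Figure D1:**
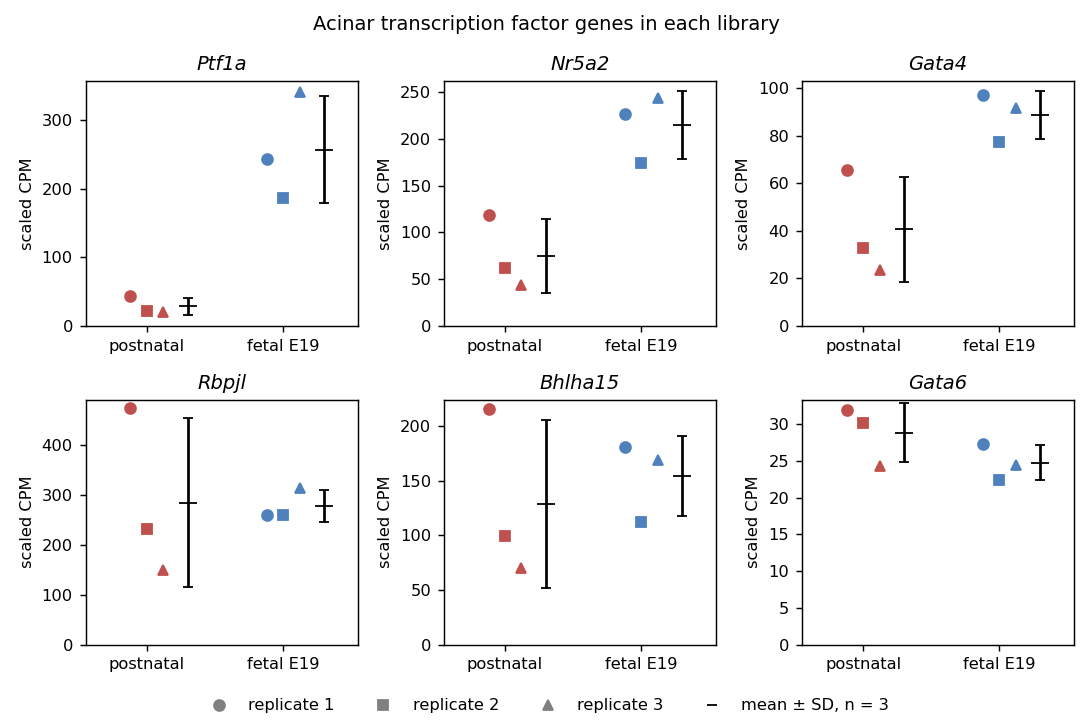
Level of each gene in scaled CPM (vertical axes from 0) in 3 postnatal and 3 fetal libraries, with marker shapes for replicates and bars for the mean ± SD. The groups are apart for Ptf1a, Nr5a2 and Gata4, and overlap for Rbpjl, Bhlha15 and Gata6, where postnatal replicate 1 is the highest of the 6 libraries.

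Nr5a2, the nuclear receptor gene, was measured at 119, 62.1 and 43.8 scaled CPM in postnatal replicates 1, 2 and 3, against 227, 175 and 244 scaled CPM in fetal replicates 1, 2 and 3. All postnatal values lay below all fetal ones. The means were 75.0 ± 39.2 in postnatal and 215 ± 36.1 scaled CPM in fetal libraries, and the gene fell by 1.62 ± 0.33 on the log2 scale (limma adjusted p = 0.00353). Nr0b2, which encodes the small partner SHP that represses NR5A2 and is itself one of its targets in liver, stood at 14.4, 7.36 and 4.78 in the postnatal and 15.0, 14.8 and 19.4 scaled CPM in the fetal libraries. It fell by 0.93 ± 0.33 (limma adjusted p = 0.0381), a call that ended under 10 of 21 settings, including the omission of any 1 library other than postnatal replicate 1 (log2 fold changes of -0.61 to -0.99 there).

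Bhlha15, the gene of MIST1, had 216, 99.4 and 70.1 scaled CPM in postnatal replicates 1, 2 and 3, against 181, 112 and 169 scaled CPM in fetal replicates 1, 2 and 3. Postnatal replicate 1 exceeded every fetal library and the other postnatal libraries lay below all of them. The log2 fold change was -0.39 ± 0.39, with a 95% interval of -1.29 to 0.51 (limma adjusted p = 0.399). Without postnatal replicate 1 it was -0.84 ± 0.23 (limma adjusted p = 0.0138). Plasma cells also use Bhlha15. Of 6 listed plasma cell markers, Jchain, Sdc1 and Irf4 were not found in the deposited table. The other markers, Mzb1, Tnfrsf17 and Pou2af1, were too low to be tested, with summed levels of 1.21 to 2.62 in postnatal and 0.401 to 2.06 scaled CPM in fetal libraries.

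Gata4 stood at 65.6, 32.8 and 23.5 scaled CPM in postnatal replicates 1, 2 and 3, against 97.2, 77.4 and 91.9 scaled CPM in fetal replicates 1, 2 and 3. The postnatal values were all lower, and the gene fell by 1.23 ± 0.33 on the log2 scale (limma adjusted p = 0.0118). Gata6 stood at 32.0, 30.1 and 24.3 scaled CPM in the postnatal and 27.2, 22.5 and 24.5 scaled CPM in the fetal libraries. These values overlapped, with a log2 fold change of 0.21 ± 0.13 and a 95% interval of -0.11 to 0.52 (limma adjusted p = 0.210). It passed the threshold after rescaling without the 20 highest genes (0.44, limma adjusted p = 0.0330, with 39.1% of tested genes called higher) and was -0.13 with plain CPM. The log2 ratio of Gata4 to Gata6 was 1.01, 0.12 and -0.05 in postnatal replicates 1, 2 and 3, and 1.80, 1.74 and 1.86 in fetal replicates 1, 2 and 3. The ratio was lower in all 3 postnatal libraries, with a mean difference of -1.44 log2 units (two-sided exact permutation p = 0.1, 0.133 adjusted over 4 ratios).

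In all, 3 of the 6 genes were lower and none higher after birth, against 63.1% of all tested genes called in either direction and 33.1% called lower. The groups did not overlap for 70.0% of tested genes, with postnatal values lower for 36.9% and higher for 33.1%. Calls of either kind were thus common among all genes. The members' median log2 fold change was -0.81 against -0.03 for all tested genes. The called falls held under all 21 settings, also without fetal replicate 2, the library high in liver transcripts (-3.37, -1.76 and -1.33).

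**Figure D2:**
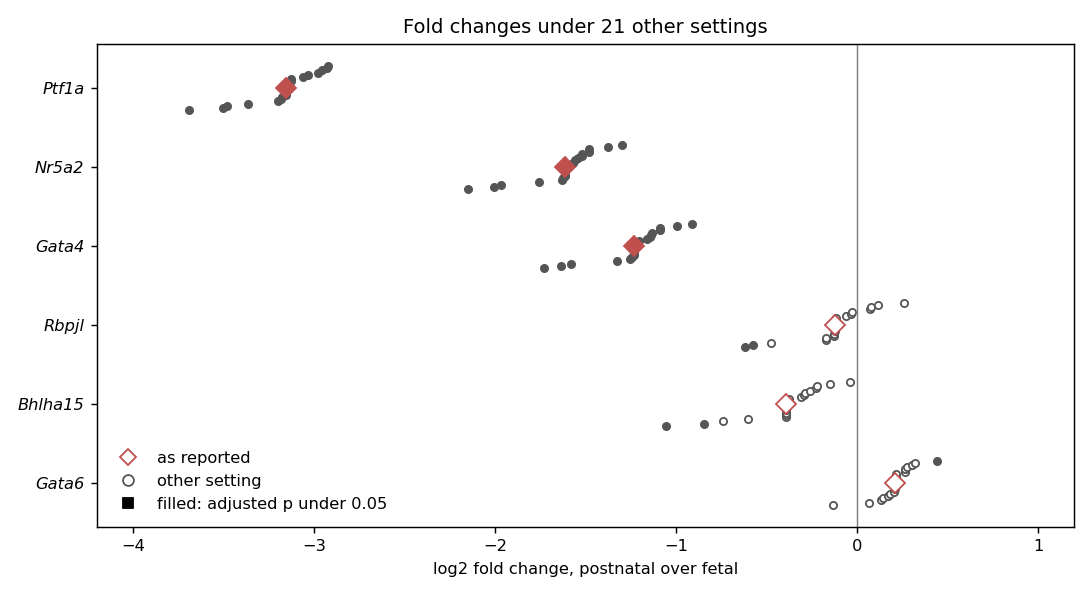
Log2 fold change, postnatal over fetal (horizontal axis), of each gene as reported (diamonds) and under 21 other settings (circles), filled where the adjusted p was under 0.05. Ptf1a, Nr5a2 and Gata4 stay filled and below 0 throughout, whereas Rbpjl runs from -0.62 to 0.26, Bhlha15 from -1.06 to -0.04 and Gata6 from -0.13 to 0.44.

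Genes of digestive enzymes, which these factors are known to drive in mice, were higher after birth. Of 27 listed enzyme and granule genes 24 were tested, 21 rose, none fell, and the median log2 fold change was 4.93. Over all tested genes, 30.0% were called higher. The largest rises were those of Pla2g1b, pancreatic phospholipase A2 (8.76 ± 0.95), Cpb1, carboxypeptidase B (8.69 ± 1.01), and Prss1, a trypsinogen (8.01 ± 0.79), whose reads near-identical trypsinogen genes may share. Fetal replicate 2 was the highest fetal library for all 3, with Cpb1 at 19.1, 427 and 76.3 and Pla2g1b at 4.24, 77.9 and 8.54 scaled CPM in fetal replicates 1, 2 and 3. Without fetal replicate 2 the log2 fold changes were 9.92 for Pla2g1b, 9.84 for Cpb1 and 8.73 for Prss1, and without fetal replicate 1 they were 7.96, 7.63 and 7.20. Without postnatal replicate 1 that of Prss1 was 7.42. Of the 3 that did not pass, Cpa1 stood at 18134 to 47469 scaled CPM in postnatal and 14486 to 22440 in fetal libraries. Ctrb1 stood at 30372 to 89924 in postnatal and 19782 to 31254 in fetal libraries, and Pnliprp1 at 49651 to 153655 in postnatal and 25796 to 41215 in fetal libraries.

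The levels of the factors were also set against the summed enzyme signal of the same library. Among postnatal libraries the highest Rbpjl value was 3.19 times the lowest, and the same factor was 3.08 for Bhlha15, 2.79 for Gata4, 2.72 for Nr5a2, 2.13 for Ptf1a and 1.32 for Gata6, against a median of 1.29 for all tested genes. All 6 were highest in postnatal replicate 1, the library with the highest enzyme share, as were 41.0% of tested genes, and all 6 stood in falling order over postnatal replicates 1, 2 and 3, as did 22.5%. Per 100000 scaled CPM of enzyme transcripts, the factor between highest and lowest postnatal library was 1.43 for Rbpjl, 1.30 for Bhlha15, 1.35 for Gata4, 1.41 for Nr5a2 and 1.42 for Ptf1a. For Gata6 it was 2.55, wider than its unscaled spread. On this scale Ptf1a stood at 5.88 to 8.34 in postnatal and 165 to 331 in fetal libraries, a mean 35.8 times lower after birth. The same factor was 12.0 for Nr5a2, 9.26 for Gata4, 5.26 for Bhlha15, 4.12 for Rbpjl and 3.12 for Gata6. Postnatal values of all 6 lay below all fetal ones on this scale, as did those of 78.8% of the 12902 tested genes outside the enzyme list, since the enzyme sum in the denominator was itself higher in every postnatal library. The share of acinar cells in each preparation was not measured, and its part in these differences was not tested.

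**Figure D3:**
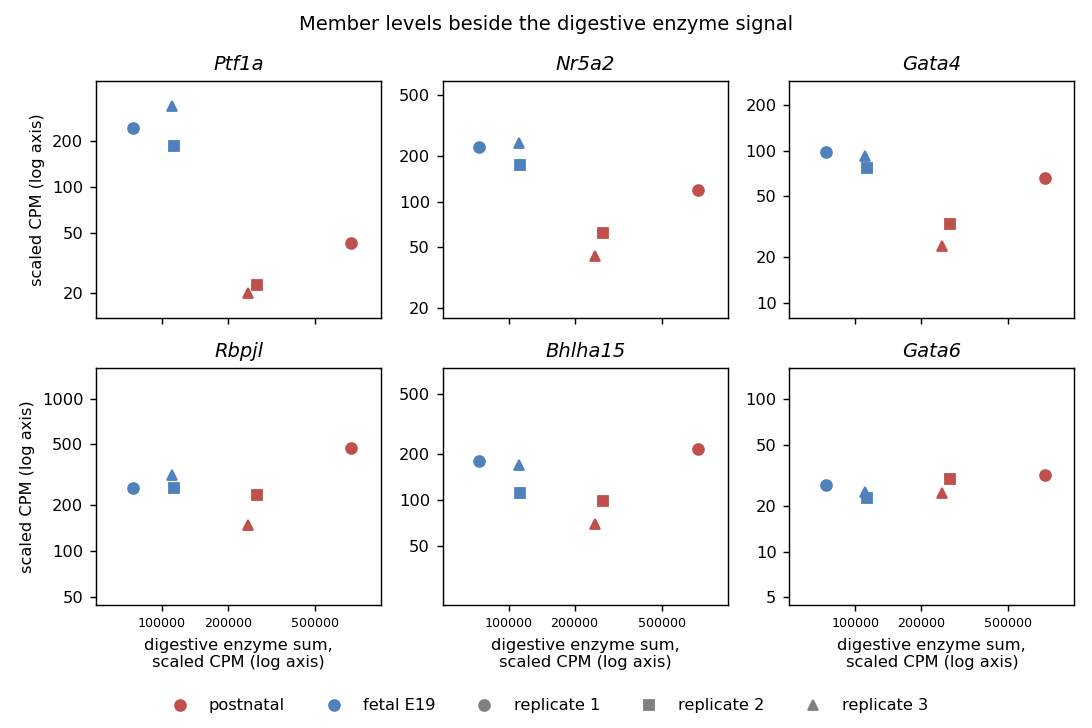
Level of each gene in scaled CPM (vertical, log axis) against the summed level of 24 digestive enzyme and granule genes (horizontal, log axis) in the 3 postnatal and 3 fetal libraries. Postnatal libraries lie to the right, between 247685 and 731964; within them 5 genes climb with the enzyme sum and Gata6 varies little, and the postnatal points of Ptf1a sit lowest against the fetal ones.

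E protein genes, Id factor genes and Rbpj were called in part. Of 8 listed, 6 were tested, 1 rose, 2 fell and 3 did not pass (median -0.16). Over all tested genes, 30.0% were called higher and 33.1% lower. The E protein genes Tcf3 and Tcf12 were not found in the deposited table. Id1 and Id2, whose products hold E proteins away from DNA, fell by 2.19 ± 0.19 and 1.70 ± 0.17, with Id1 at 25.7 to 37.7 scaled CPM in postnatal and 137 to 193 in fetal libraries. Tcf4, an E protein gene, rose by 0.82 ± 0.13, a call that ended with plain CPM (0.48, adjusted p = 0.152). Among 11 relatives and cofactors of the GATA and NR5A factors, 4 could be tested. Besides Nr0b2, Gata2, a factor of blood and endothelial cells, rose by 0.96 ± 0.34. Its call ended under 8 of 21 settings, among them the omission of postnatal replicate 2 or 3 or fetal replicate 2 or 3 (0.70 to 0.90). All 7 tested endothelial markers were called higher and 4 of 5 erythroid markers lower. The part of either cell type in the Gata2 value was not tested. Bhlhe22, a neuronal relative of Bhlha15, stood at 1.11 to 2.31 scaled CPM in postnatal and 0.0617 to 0.436 in fetal libraries. It passed the filter on low values only through the postnatal group, and its fold change depended on the pseudocount and the tool, so none is given. Zfpm1, the GATA cofactor FOG1, did not pass (19.0 to 27.6 and 19.4 to 28.6).

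Genes of acinar secretion, some of them targets of MIST1 in mice, mostly did not pass the test, and calls went in both directions. Of 15 tested, 2 rose, 3 fell and 10 did not pass, with a median of -0.22. Over all tested genes, 30.0% were called higher and 33.1% lower. Sctr, the secretin receptor, rose by 2.54 ± 0.33, with 19.6 to 55.4 scaled CPM in postnatal against 4.32 to 5.78 in fetal libraries. Cckar, the cholecystokinin receptor, rose by 1.08 ± 0.31, and that call ended without fetal replicate 1 (1.03) or fetal replicate 2 (0.99). Gjb1, the gap junction protein connexin 32, fell by 1.75 ± 0.38. Atp2c2, a secretory pathway calcium pump, fell by 1.06 ± 0.16, and Stxbp2, a vesicle fusion protein, by 0.59 ± 0.15. Rab3d and Rab26, granule GTPases whose genes bind MIST1 in mice, did not pass (-0.55 ± 0.24, limma adjusted p = 0.0775, and -0.84 ± 0.36, adjusted p = 0.0697). Without postnatal replicate 1 both did (-0.85 and -1.28). In that setting 9 genes of the list fell in place of 3, and 35.6% of all tested genes were called lower.

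Transcription factors of pancreatic progenitors and ducts mostly did not pass the test. Of 12 tested, 2 rose, 1 fell and 9 did not pass, with a median of 0.08, against 30.0% of all tested genes called higher and 33.1% lower. Tead2, a partner of the Hippo effector YAP, fell by 2.08 ± 0.19, with 10.2 to 17.3 scaled CPM in postnatal and 55.6 to 69.3 in fetal libraries. Mnx1 (1.03 ± 0.20) and Pdx1 (0.45 ± 0.16), both kept in beta cells, rose, while Nkx6-1 did not pass (0.47 ± 0.28, limma adjusted p = 0.174). The summed level of 6 islet hormone markers, Gcg, Sst and Ppy among them, was 59968 to 110913 scaled CPM in the postnatal and 2023 to 5602 in the fetal group. The part of endocrine cells in these values was not tested. The Pdx1 call ended under 7 of 21 settings, among them without postnatal replicate 2 (0.45) or 3 (0.30) and without fetal replicate 2 (0.44) or 3 (0.40), and that of Mnx1 with plain CPM.

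**Figure D4:**
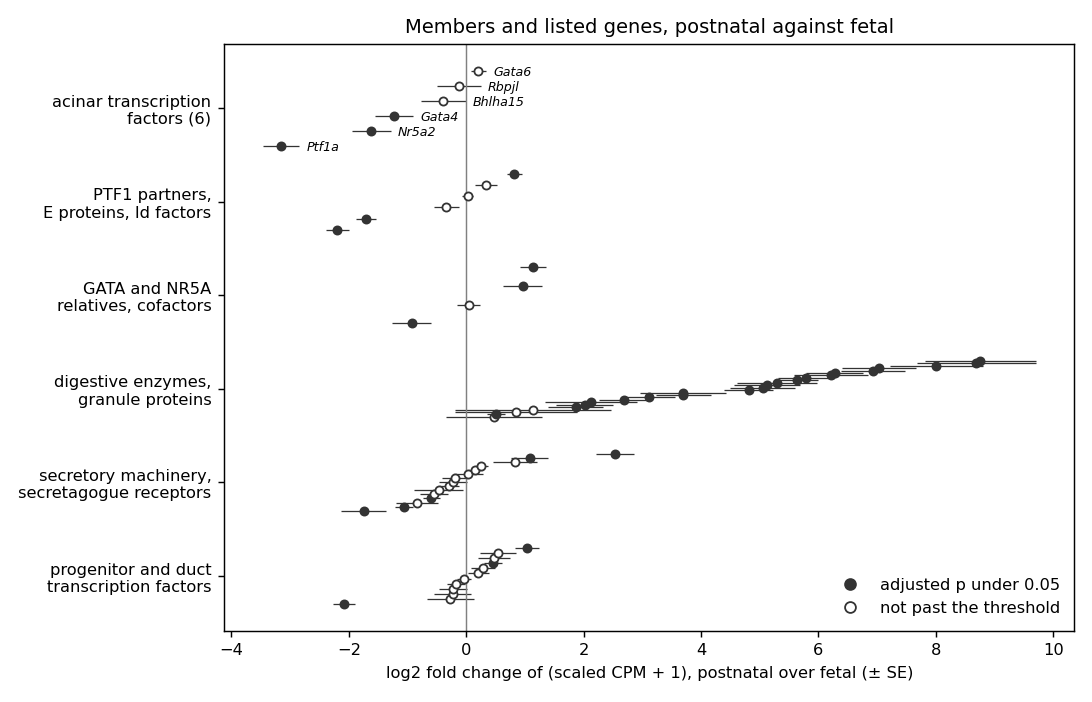
Log2 fold change of (scaled CPM + 1), postnatal over fetal, with SE (horizontal axis), for the 6 transcription factor genes and the tested genes of 5 lists (rows). Filled points passed an adjusted p of 0.05; the enzyme row reaches 8.76 while Ptf1a stands at -3.16, and most secretory and progenitor genes lie near 0 and are open.

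Markers of other cell types were read beside these results, where 30.0% of all tested genes were called higher and 33.1% lower. Gata4 and Gata6 are also used by mesothelium, mesenchyme and liver, and Gata6 by smooth muscle. Mesenchymal and smooth muscle markers rose in 6 of 6 cases (summed level 6773 to 11819 scaled CPM in postnatal and 1486 to 2267 in fetal libraries). Mesothelial markers were called higher in 4 of 5 (533 to 875 and 110 to 175), with Wt1 not past the threshold. Of these, Upk3b, Lrrn4 and Upk1b passed the filter on low values only through the postnatal group, so their calls carry no weight. Msln made up most of the sum (512 to 839 and 103 to 167). Endothelial markers rose in 7 of 7 (470 to 758 and 192 to 313). Of 9 duct markers 6 fell and 3 did not pass (976 to 1433 and 2062 to 2348), and of 5 erythroid markers 4 were called lower (14.8 to 23.6 and 113 to 219). Among those 4, Hbe1 (0 to 0.0688 and 46.6 to 93.4) passed the filter on low values only through the fetal group, so its call carries no weight. Of 6 tested hepatic markers 2 fell (88.0 to 125 and 209 to 7041), near the share of all tested genes called lower. Of 5 intestinal markers only Vil1 could be tested, and it fell, while Cdx2 and Fabp2 were near 0 (means of 0.108 and 0.085 in postnatal and 0.225 and 0.0689 scaled CPM in fetal libraries). Fabp1, which liver also expresses, was at most 0.0506 in postnatal libraries and stood at 1.11, 12.7 and 0 scaled CPM in fetal replicates 1, 2 and 3. Lgals4 was at most 0.273 in postnatal libraries and stood at 1.32, 1.16 and 0.216 scaled CPM in fetal replicates 1, 2 and 3. All 6 islet hormone markers rose. The part of these cell types in the values of the 6 factors was not tested.

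Profiles over the 6 libraries were compared by the root mean square difference of centred log2 values, where 0 is the same profile. Among the 6, Nr5a2 and Gata4 were closest (0.206), then Rbpjl and Bhlha15 (0.241), and Ptf1a and Gata6 farthest apart (1.72). Of 11149 other genes, those closest to Ptf1a were Tspan1 (0.182), Tmem254 (0.244) and LOC102549173 (0.244), against a median of 1.59 over all of them. Closest to Rbpjl were Palm3 (0.104), RGD1564899 (0.106) and Myo5c (0.148), and Myo5c was also among the 3 closest to Bhlha15 (0.193) after Ovol1 (0.184) and Eef1akmt3 (0.192). Closest to Nr5a2 were Galnt3 (0.135), Cldn3 (0.148) and Gfi1 (0.171), and closest to Gata4 were Grhl2 (0.0662), Lrrc7 (0.0831) and Gjb2 (0.0995). For Gata6 the nearest were Tnrc6b (0.0295), Rab40c (0.0378) and Prdm2 (0.0385), where the median over all genes was 0.393. Such distances are a description over 6 libraries and say nothing of shared control.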

How the data were processed

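Total RNA of freshly isolated rat islets was sequenced from stranded libraries depleted of ribosomal RNA, per the labels' protocols. TopHat2 2.0.8b and edgeR 3.30.3 are named, without roles, per the submitters' processing notes. Build, annotation, counter and strand setting are nowhere stated, so reads of a gene and of an overlapping or antisense neighbour may be mixed. A single table was deposited by the authors, giving a normalized signal per gene without a unit. Its values above 0 (100%, tolerance 0.001) are whole reads times 1 constant per library, and the constants match TMM-scaled library sizes, so the signal is called scaled CPM. A row without a gene name held at most 3.19e-05% of a library and was left out.

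Libraries were grouped by title. The test was limma 3.58.1 (R 4.3.3, trend on, two-sided) on log2(value + 1), over 12926 genes with at least 1 in at least 3 libraries, and called at a Benjamini-Hochberg adjusted p under 0.05. Fold changes on that scale understate those of low genes. Ratios were compared by exact permutation. Alternatives were edgeR 4.0.16 and DESeq2 1.42.0, each run on the recovered reads, and other pseudocounts, filters, scalings, designs and left-out libraries. The fit was also run on simulated reads in which few genes changed, unlike these data, so that run says nothing of the scaling here. No library was a duplicate: within groups the chi-square of the reads was 50.0 to 411 times its degrees of freedom. Named genes were the members, Rbpj, the 3 largest called changes of each list, called genes against their list's direction, and the 3 closest profiles per member. Other list genes that are named were chosen after their values were seen. Members and lists were chosen with earlier results of these data known. Of 145 list entries beyond the members, 124 were found in the table, Car2 through a RefSeq synonym.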

Additional observations from a re-analysis of the deposited data

How the results depend on the processing

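The falls of Ptf1a, Nr5a2 and Gata4 kept their direction and their call under all 21 settings. The settings that changed only the filter, the variance trend or the added covariates left fold changes identical by construction. Those settings bear on the call alone. Leaving out 1 library at a time gave -3.48 to -2.93 for Ptf1a, -2.01 to -1.30 for Nr5a2, -1.64 to -0.91 for Gata4, -0.57 to 0.26 for Rbpjl, -0.84 to -0.040 for Bhlha15, 0.13 to 0.32 for Gata6 and -0.036 to 0.093 for Rbpj. Rbpjl turned higher after rescaling without the 20 highest genes (0.11), without postnatal replicate 3 (0.26) and with edgeR (0.075) and DESeq2 (0.072), none past the threshold. Leaving out both fetal replicate 2 and postnatal replicate 1, where 32.4% of tested genes were called lower, Rbpjl (-0.62) and Bhlha15 (-1.06) were called lower. Gata6 was called higher after rescaling without the 20 highest genes (0.44) and turned to -0.13 with plain CPM. Rbpj turned lower with plain CPM (-0.33), without postnatal replicate 1 (-0.036), without fetal replicate 2 (-0.003) and without both fetal replicate 2 and postnatal replicate 1 (-0.061), never past the threshold. The causes were not tested beyond the make-up of these settings. The ratio of Rbpjl to Rbpj differed by -0.54 to 0.17 and that of Gata4 to Gata6 by -1.77 to -1.23 under 9 settings each. Deviations of same-numbered libraries correlated over genes at -0.21, 0.10 and -0.25, within the range of the other pairs (-0.36 to 0.43). Deviations are taken from means of 3 libraries, so these values cannot settle whether libraries were paired. The fit with the number as a replicate block called 7426 genes in place of 8152 and changed no call of the 6 members. Of 588 counts over gene lists, 57 moved by more than 1.5 times. With 3 libraries a group, the 95% intervals of Rbpjl, Bhlha15 and Gata6 hold changes in either direction.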

Other observations

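The postnatal age labels order the libraries as week 2, 3 and 4 for replicates 1, 2 and 3, against titles that give 2 weeks for each. In that labelled order all 6 genes stood highest at week 2, lower at week 3 and lowest at week 4, as did 22.5% of tested genes. Ptf1a had 43.0, 22.6 and 20.2, Rbpjl 473, 231 and 148, and Gata6 32.0, 30.1 and 24.3 scaled CPM. The enzyme share fell in the same order (49.5%, 27.9% and 24.6% of reads), so labelled age and enzyme share cannot be told apart. The labelled week, centred within the postnatal group, was also fitted as a covariate. By that coding the log2 fold changes could not move, only their SE. For Bhlha15 (-0.39) the SE was 0.20 in place of 0.39 (limma adjusted p = 0.119). For Rbpjl (-0.13) it was 0.13 in place of 0.37 (limma adjusted p = 0.402).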
